A study of Mus musculus with 12 samples.

Results

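The cholesterol synthesis and transport genes described here are 33 genes, chosen by symbol for their textbook roles, out of 21859 genes measured in mouse spermatogonia. They comprise 19 synthesis enzymes, 7 sensors and transcription factors that set the sterol supply, and 7 genes of uptake, transport, efflux and storage. Of these enzymes *Ggps1* serves the isoprenoid branch, which leaves the route to cholesterol. All 33 passed the filter on low values (log2 of the mean RPM above -1, where RPM is reads scaled to a fixed library total), as did 16932 genes in all.

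Cells make cholesterol from acetyl-CoA by way of mevalonate, farnesyl pyrophosphate, squalene and lanosterol. SREBP2, encoded by *Srebf2*, switches the enzyme genes on when sterols are low, after SCAP has carried it from the endoplasmic reticulum to the Golgi, and the INSIG proteins hold SCAP back when sterols are high. In the testis cholesterol is known as the precursor of androgens in Leydig cells and as a part of germ cell membranes, and the isoprenoid branch of the pathway supplies lipid anchors for small GTPases.

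The study compared testes fixed to the abdominal wall by surgery (cryptorchid) with testes left in the scrotum (control), and RNA was taken 10 days after the operation. Both groups came from adult mice labelled WT, which per the study's methods carried a GFRa1-EGFP reporter, so that EGFP marks cells that use the gene of the GDNF receptor GFRa1. Sorted GFRa1+/KIT- cells, which are undifferentiated spermatogonia and include the stem cells, gave 5 control and 7 cryptorchid libraries, each made by Smart-seq2 from RNA equal to about 200 cells. The left testis was operated and the right one served as control, and cells were freed from control testes at a lower temperature than from cryptorchid testes, so that the effect of this step cannot be told apart from that of the condition. The strain of the reporter mice and which libraries share a mouse are not given in the sources used here, and *P*-values therefore measure the spread between these libraries, which may be technical in part. In RNA from sorted pools, fewer cells that express a gene and less RNA per cell cannot be told apart.

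Reads on genes numbered from 4511730 to 24345368 in control and from 3306771 to 20027902 in cryptorchid libraries. All 10 markers of undifferentiated spermatogonia had reads in every library, and their summed level was 1135 to 1704 RPM in control and 1302 to 2007 RPM in cryptorchid libraries. *Kit*, the gene of the surface protein that was gated out, was still measured at 3.67 to 5.31 log2 RPM in control and 4.22 to 5.74 log2 RPM in cryptorchid libraries. The libraries numbered 1 to 3 and those numbered 4 and above differed in the share of reads on genes (74.5% to 94.0% against 94.8% to 99.9%) and in depth, and are called batch 1 and batch 2 below, from their values alone. The libraries numbered 3 in both groups stood apart, for the cholesterol genes and over all tested genes. In each of them 16 of the 19 synthesis enzymes lay below their own mean over 12 libraries. The median deviation of the enzymes was -0.84 log2 in control replicate 3 and -0.79 log2 in cryptorchid replicate 3. Over all tested genes it was -0.35 and -0.32 log2 in the same libraries. In these libraries long genes were also high against short ones, by 0.72 and 0.85 log2. In the other libraries this contrast ran from -0.48 to -0.27 log2 in control and from -0.25 to 0.25 log2 in cryptorchid libraries. It therefore differed between the groups as well. Over all 12 libraries the median difference, cryptorchid minus control, was 0.19 log2 for long and -0.007 log2 for short tested genes. The part of gene length in the low enzyme values and in the group differences below was not tested. Because the libraries numbered 3 stood apart, results are given below with and without both libraries.

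**Figure D1:**
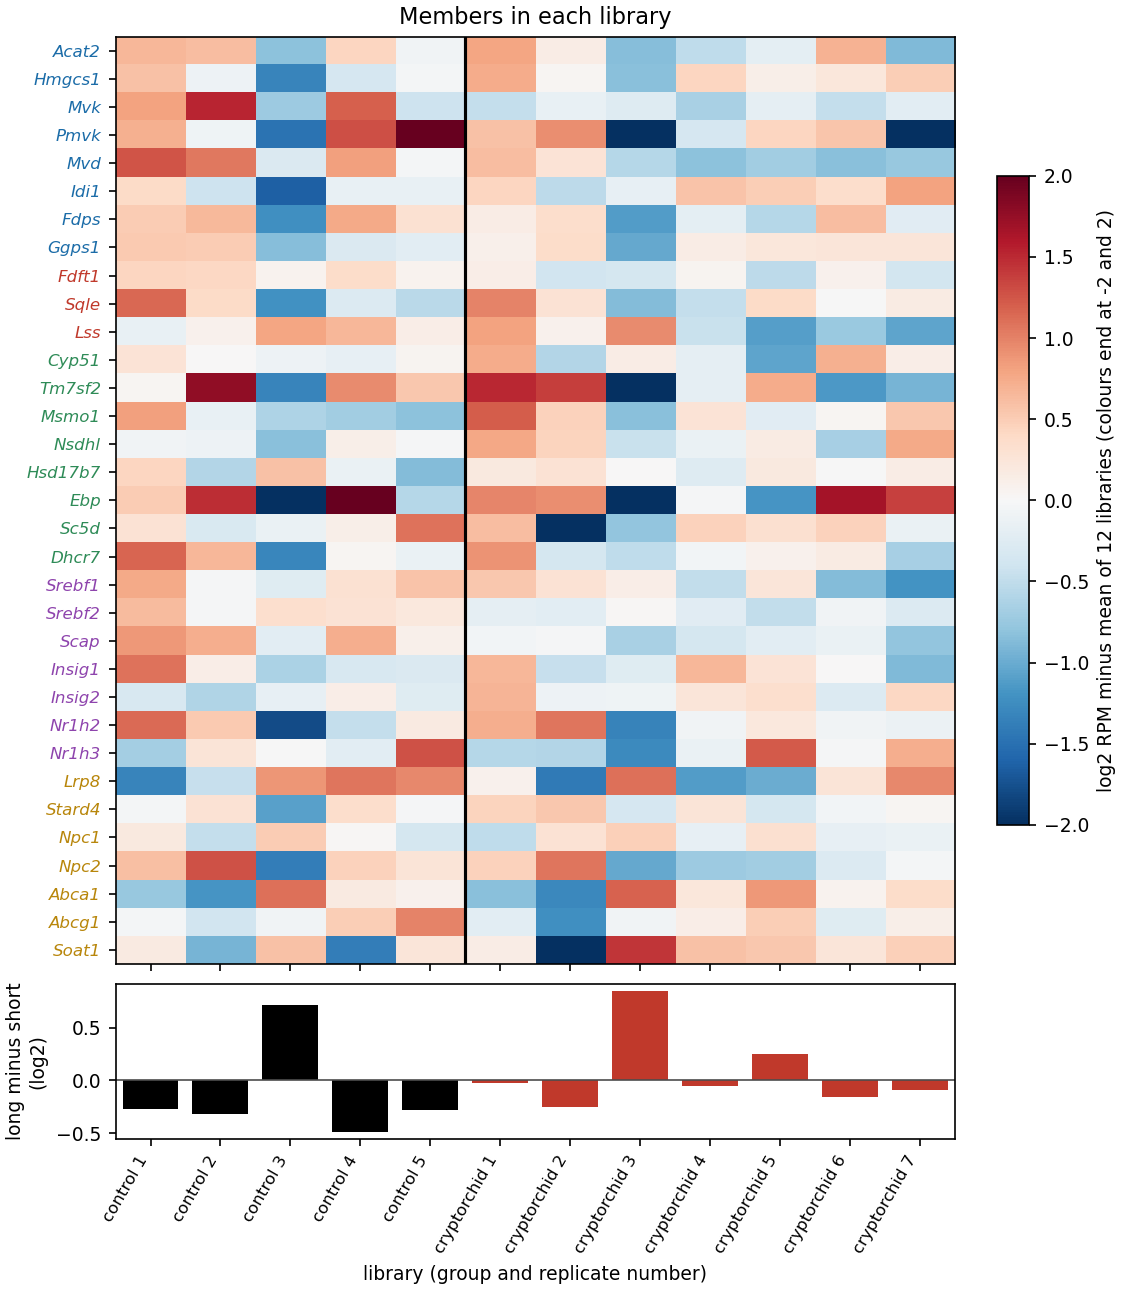
The upper panel shows log2 RPM of each of the 33 genes (rows, names coloured by role in the order of the pathway) minus its mean over 12 libraries, in 5 control and 7 cryptorchid libraries (columns), with blue for lower and red for higher. The bars in the lower panel give, for each library, the median deviation of long tested genes minus that of short ones in log2 units, and the columns numbered 3 show mostly blue enzymes together with the highest bars, 0.72 and 0.85.

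Levels were compared between genes as RPM per kb of exon, the scale on which gene length is taken into account. The length was that of all annotated exons of a gene merged, which can exceed the length of its mRNA, so ranks depend in part on the annotation. In control libraries the median level was highest for *Fdps*, farnesyl pyrophosphate synthase, at 90.0 RPM per kb, followed by *Fdft1*, squalene synthase, at 60.7 RPM per kb and by *Mvd*, mevalonate pyrophosphate decarboxylase, at 40.2 RPM per kb. *Fdps* also ranked 1 in cryptorchid libraries, at 55.4 RPM per kb. *Mvd* held rank 3 of 33 in control and rank 9 in cryptorchid libraries, where its median was 14.2 RPM per kb. Of the genes outside synthesis, the efflux pump gene *Abca1* was highest, with 38.4 RPM per kb in control and 42.2 RPM per kb in cryptorchid libraries, and *Srebf2* came next in control with 31.1 RPM per kb against 21.8 RPM per kb in cryptorchid libraries. The lowest in control were *Ebp*, a sterol isomerase, at 0.818 RPM per kb and *Tm7sf2*, a sterol reductase, at 0.805 RPM per kb. *Ebp* had no read in 2 libraries, both numbered 3, where the limit that a count of 0 allows (3 reads) was -1.77 and -1.49 log2 RPM, and *Tm7sf2* had 2 reads in its lowest library. Differences of these genes, and of *Pmvk* with 7 reads in its lowest library, were measured with little precision.

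**Figure D2:**
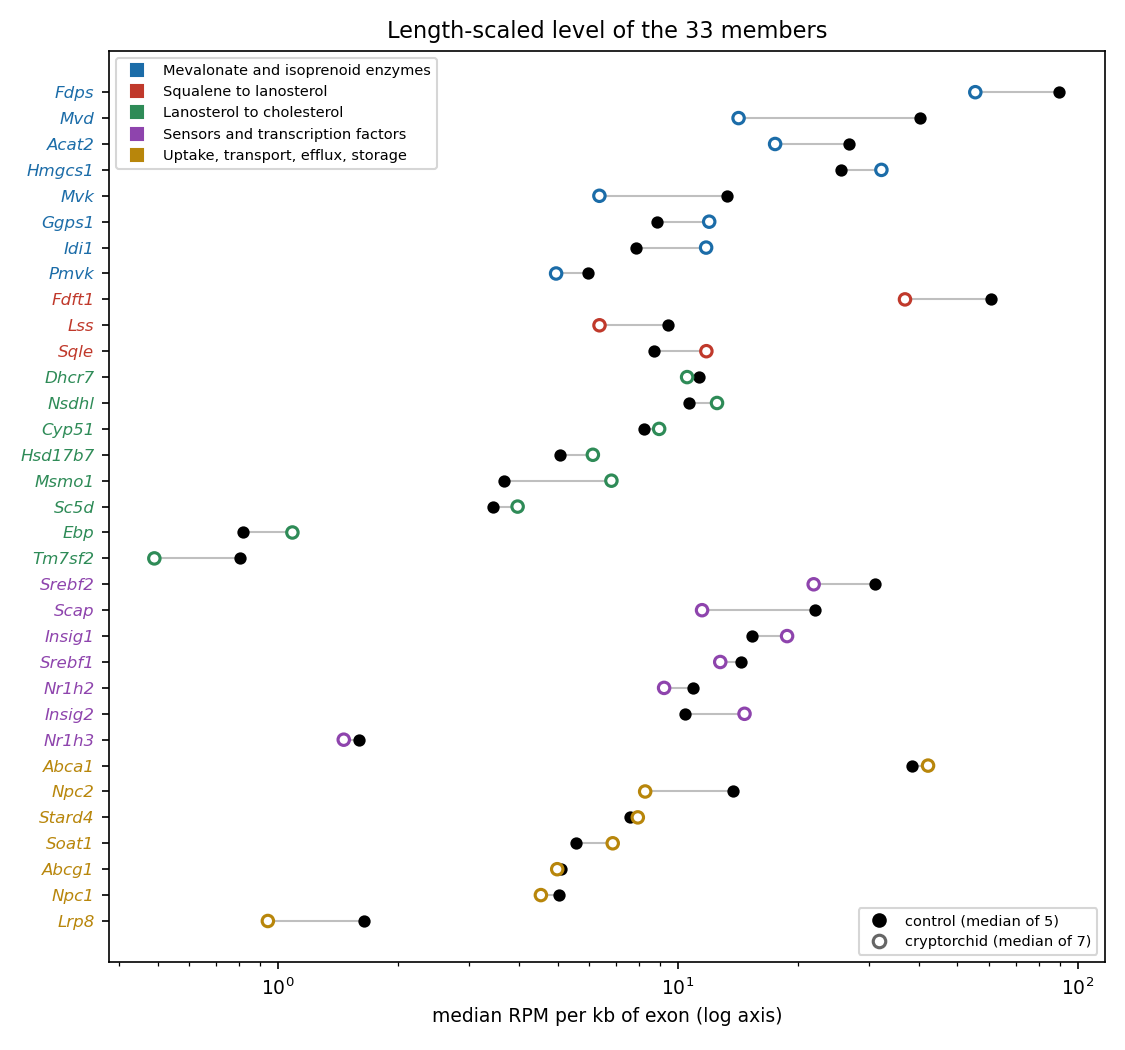
Median level of the 33 genes in RPM per kb of exon (log axis) for 5 control libraries (filled black) and 7 cryptorchid libraries (open, coloured by role), with a grey line joining the 2 medians of a gene. *Fdps* lies farthest to the right in both groups and *Tm7sf2* farthest to the left, and the widest gaps to lower cryptorchid medians include *Mvd* (40.2 and 14.2 RPM per kb).

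Promoter letters of the genes were read because SREBPs act on sterol genes together with the factors NF-Y and Sp1. The RefSeq promoters used here cover 27 of the 33 genes, and the window searched was the 250 bases before each listed start, on both strands. The string TCACNCCAC, taken for the sterol regulatory element, was found in 1 of 27 genes, *Hmgcs1*, and in 1.23% of 27025 genes with a promoter. Sites that differ from this string by a base were not counted, so a gene without a match may still hold such an element. No promoter was at hand for *Fdps*, *Fdft1*, *Sqle*, *Stard4*, *Npc1* and *Abcg1*. The NF-Y box ATTGG was found in 21 of 27 (77.8%, against 37.5% of all genes with a promoter), and the Sp1 box GGGCGG also in 21 of 27 (77.8%, against 35.4%). The genes compared with included genes not measured here and were not matched for expression or GC content. Differences between these shares were not tested. *Scap* was among the genes with no NF-Y box in the window, *Srebf2* had 1 such box, which starts 135 bases before the start site, and *Mvk* had 5. The promoters of 4 genes are shown for reading beside the values of their genes. *Hmgcs1* is shown as the gene with a match to the sterol element string, *Mvk* and *Mvd* as enzyme genes with several NF-Y boxes, and *Scap* as a gene without one. They are from RefSeq on GRCm38.p6, written 5′ to 3′ on the strand of the gene, with capitals for the NF-Y box on either strand and, in *Hmgcs1* alone, for the sterol regulatory element that starts 137 bases before the start site. They lie at chr13:119690101-119690350 (plus strand), chr5:114444019-114444268 (plus strand), chr8:122443423-122443672 (minus strand) and chr9:110333038-110333287 (plus strand). A match describes letters and does not show that a factor binds there.
Hmgcs1: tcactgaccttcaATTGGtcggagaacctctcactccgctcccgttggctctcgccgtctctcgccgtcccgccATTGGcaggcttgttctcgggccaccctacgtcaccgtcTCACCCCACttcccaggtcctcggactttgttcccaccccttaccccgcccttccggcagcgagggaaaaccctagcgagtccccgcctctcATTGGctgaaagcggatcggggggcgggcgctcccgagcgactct
Mvk: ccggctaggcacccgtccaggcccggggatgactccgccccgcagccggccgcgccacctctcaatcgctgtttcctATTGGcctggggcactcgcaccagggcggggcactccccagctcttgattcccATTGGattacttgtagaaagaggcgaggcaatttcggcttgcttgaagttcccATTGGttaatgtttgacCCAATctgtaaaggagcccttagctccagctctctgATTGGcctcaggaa
Mvd: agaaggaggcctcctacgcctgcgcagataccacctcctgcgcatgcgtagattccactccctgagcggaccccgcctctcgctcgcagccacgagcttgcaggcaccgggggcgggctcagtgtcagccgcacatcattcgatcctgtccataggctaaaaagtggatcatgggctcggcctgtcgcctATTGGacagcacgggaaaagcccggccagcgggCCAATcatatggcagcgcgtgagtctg
Scap: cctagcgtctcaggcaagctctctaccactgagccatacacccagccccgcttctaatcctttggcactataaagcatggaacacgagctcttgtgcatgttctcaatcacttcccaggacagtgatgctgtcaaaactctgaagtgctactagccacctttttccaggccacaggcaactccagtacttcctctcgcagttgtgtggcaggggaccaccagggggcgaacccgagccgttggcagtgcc

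The comparison of cryptorchid with control libraries asked whether the sterol genes differ after 10 days in the abdomen. *Mvd*, *Scap* and *Srebf2* were lower in cryptorchid libraries, at 51.6%, 59.2% and 71.2% of the control geometric mean, with unadjusted limma *P*-values under 0.05. None of the 33 was higher on that test, where 5.67% of all tested genes were. No gene reached a 2-fold difference with *P* under 0.05, the study's rule, where 3.56% of all tested genes were called higher and 2.36% lower. The 3 genes are 9.09% of the 33, beside 9.48% of all tested genes in either direction. All 3 lie in the lower direction, which held 3.82% of all tested genes, and the difference between these shares was not tested. None held after Benjamini-Hochberg adjustment in limma, where the smallest adjusted *P*-value was 0.36 for *Scap* and 0.0118% of all genes passed. The exact rank sum test placed 5 of the 33 under 0.05 (9.63% of all genes), adding *Fdft1*, which was lower, and *Insig2*, which was higher, and none after adjustment. By direction these were 4 lower and 1 higher, beside 3.74% and 5.88% of all genes.

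The mean was lower in cryptorchid libraries for 18 of the 33 genes and higher for 15, and the median log2 difference was -0.15, beside a mean that was lower for 43.3% of all tested genes and a median of 0.10 over them. Without control replicate 1 the median of the 33 was 0.03. In no gene did the groups separate without overlap, as 0.283% of all genes did in the lower and 0.555% in the higher direction. The 95% interval of the difference lay inside 2-fold in either direction for 12 of the 33 genes and 25.3% of all tested genes. These 12 included *Fdft1*, *Srebf2*, *Cyp51*, *Dhcr7*, *Insig1* and *Npc1*, while the intervals of the remaining genes included differences of 2-fold or more. Without both libraries numbered 3, 6 genes had *P* under 0.05 in limma (*Mvk*, *Mvd*, *Fdps*, *Fdft1*, *Srebf2* and *Scap*, all lower), beside 13.5% of all tested genes in either direction and 6.44% in the lower one. Among them *Mvk* and *Mvd* passed the 2-fold rule, as 2.88% of all genes did in the lower direction, and none passed after adjustment, where 0.0177% of all genes did.

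**Figure D3:**
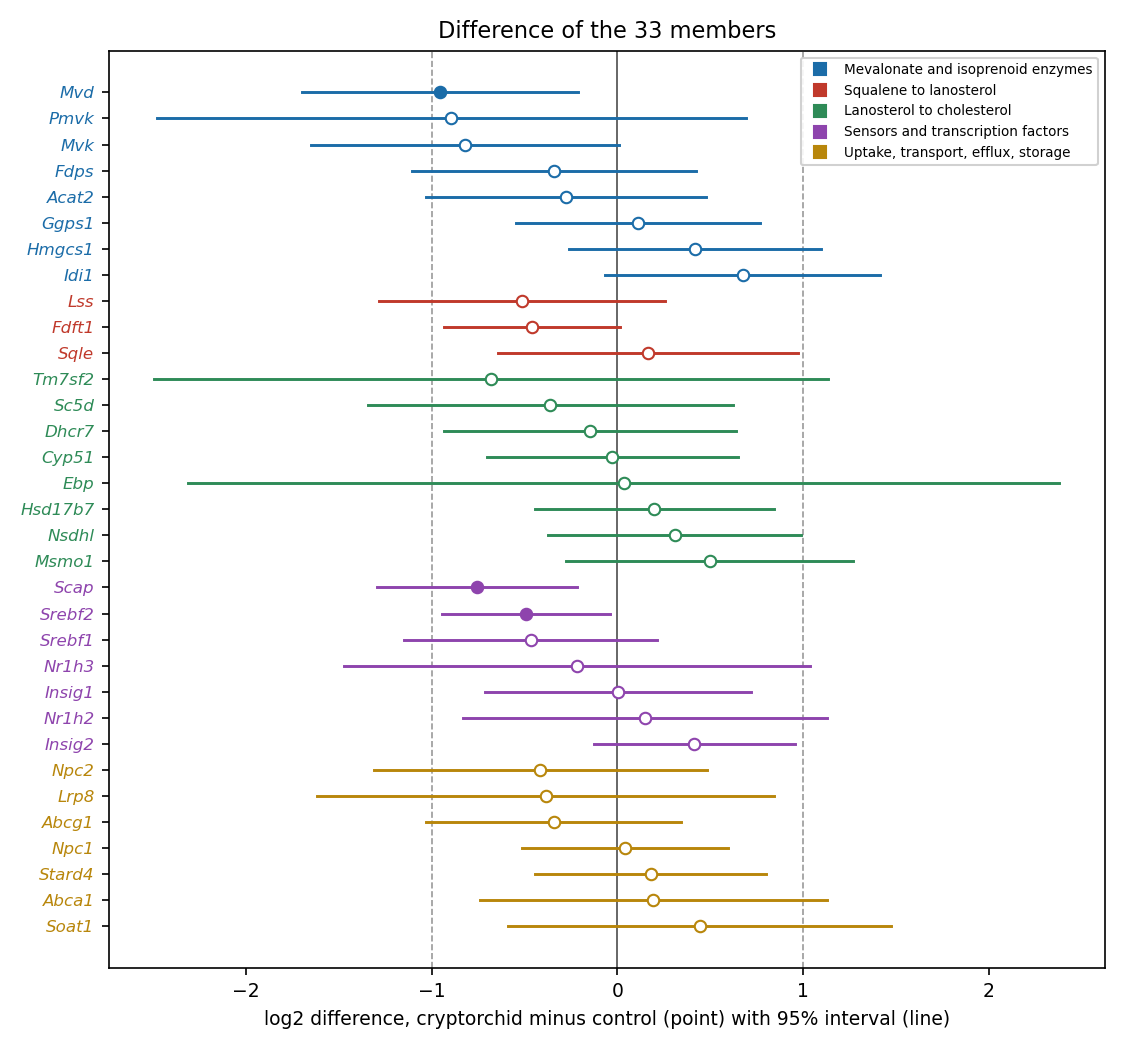
Difference of group means in log2 units, cryptorchid minus control, for each of the 33 genes (points, coloured and grouped by role) with its 95% interval from limma (lines), where filled points mark unadjusted *P* under 0.05 and dashed lines mark 2-fold. The filled points, *Mvd*, *Scap* and *Srebf2*, are all left of 0, and *Ebp* and *Tm7sf2* have the widest intervals.

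Among the 8 mevalonate and isoprenoid enzymes, 5 had lower and 3 had higher cryptorchid means, and the median difference was -0.31 log2. *Mvd* (chr8:122433601-122443422, minus strand, ENSMUSG00000006517.5), which decarboxylates mevalonate pyrophosphate to isopentenyl pyrophosphate, measured 6.66, 6.46, 5.12, 6.22 and 5.36 log2 RPM in control replicates 1 to 5. In cryptorchid libraries its lowest value was 4.58, its median 4.72 and its highest 6.04 log2 RPM. All 7 cryptorchid values lay below the control median and 5 lay below the lowest control value, and the overlap came from cryptorchid replicates 1 and 2. The difference of means was -0.95 log2 with an SE of 0.35, at limma *P* = 0.0148 and an adjusted *P* of 0.40, and the exact two-sided rank sum test gave *P* = 0.0303. Without control replicate 1 the limma *P* was above 0.05.

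*Mvk*, mevalonate kinase, the enzyme that adds the first phosphate to mevalonate, measured 5.15, 5.86, 3.61, 5.54 and 3.93 log2 RPM in control replicates 1 to 5. In cryptorchid libraries it ranged from 3.70 to 4.20 log2 RPM with a median of 4.09. The cryptorchid libraries lay close together, with an SD of 0.19 against 0.99 in control, and control replicates 3 and 5 lay below the highest of them. The difference was -0.82 log2 with an SE of 0.39, at limma *P* = 0.0521 and *P* = 0.343 in the exact rank sum test. Without both libraries numbered 3 it was -1.14 log2, with limma *P* under 0.05 and an adjusted *P* of 0.22.

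The other enzymes of this arm did not have *P* under 0.05. *Idi1*, which isomerises isopentenyl pyrophosphate, had a cryptorchid mean 0.67 log2 above control (SE 0.35, limma *P* = 0.0726, exact rank sum *P* = 0.149), and 4 of 7 cryptorchid values lay above the highest control value. *Hmgcs1*, the HMG-CoA synthase whose promoter matched the sterol element string, differed by 0.42 log2 (SE 0.32) and *Ggps1*, which makes geranylgeranyl pyrophosphate, by 0.11 log2 (SE 0.31). On the lower side *Pmvk*, which adds the next phosphate, differed by -0.90 log2 with an SE of 0.75, *Fdps* by -0.34 log2 (SE 0.36) and *Acat2*, the cytosolic thiolase that opens the pathway, by -0.28 log2 (SE 0.36). Without both libraries numbered 3, *Fdps* differed by -0.54 log2, with limma *P* under 0.05 and an adjusted *P* of 0.34. *Acat2* shares 97.7% identity over 1477 bases with *Acat3*, and *Fdps*, *Idi1*, *Ggps1* and *Fdft1* have processed pseudogenes that are close copies, so their counts are uncertain to that extent. Exons of *Fdps* overlap *Gm43738* on the same strand, and those of *Ggps1* overlap *Arid4b* on the opposite strand.

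From farnesyl pyrophosphate to lanosterol lead 3 enzymes, with a median difference of -0.46 log2. *Fdft1*, squalene synthase, which commits farnesyl pyrophosphate to sterols, measured 8.05, 8.04, 7.71, 8.004 and 7.70 log2 RPM in control replicates 1 to 5. Its cryptorchid values ran from 7.11 to 7.76 log2 RPM with a median of 7.29. All 7 lay below the control median and 5 below the lowest control value. The difference was -0.46 log2 (SE 0.22), with *P* = 0.0555 and an adjusted *P* of 0.54 in limma and *P* = 0.0303 in the exact rank sum test. Up to 774 bases of its exons overlap *Ctsb* on the opposite strand, and as strand use in counting is not stated, reads of these genes cannot be told apart there.

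*Lss*, lanosterol synthase, which closes the sterol rings, measured 6.39, 6.62, 7.33, 7.21 and 6.67 log2 RPM in control replicates 1 to 5. Its cryptorchid values spread from 5.44 to 7.49 log2 RPM with a median of 6.10. Cryptorchid replicates 4 to 7 lay below all control values and replicates 1 and 3 lay above them. The difference was -0.52 log2 (SE 0.37, limma *P* = 0.176, exact rank sum *P* = 0.432). *Sqle*, squalene epoxidase, differed by 0.17 log2 (SE 0.38).

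The 8 enzymes that turn lanosterol into cholesterol were evenly divided, 4 with a higher and 4 with a lower cryptorchid mean, and their median difference was 0.00 log2. *Msmo1*, a sterol C4-methyl oxidase, measured 5.94, 4.97, 4.49, 4.42 and 4.30 log2 RPM in control replicates 1 to 5 and from 4.29 to 6.32 log2 RPM, median 5.39, in cryptorchid libraries. The groups overlapped, with 1 of 7 cryptorchid values above the highest control value and 1 below the control median of 4.49. The difference was 0.50 log2 (SE 0.37, limma *P* = 0.194, exact rank sum *P* = 0.343).

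*Nsdhl*, a sterol dehydrogenase of the same demethylation step, measured 4.93, 4.90, 4.15, 5.11 and 4.98 log2 RPM in control replicates 1 to 5. In cryptorchid libraries it ranged from 4.32 to 5.77 log2 RPM with a median of 5.16. Of the cryptorchid values, 4 lay above every control value and 3 lay below the control median. The difference was 0.31 log2 (SE 0.32, limma *P* = 0.354, exact rank sum *P* = 0.432), and its upper 95% limit was 0.99 log2.

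Of the other 6, *Cyp51*, the lanosterol demethylase, differed by -0.03 log2 (95% interval -0.70 to 0.65) and *Dhcr7*, which carries out a last reduction on the way to cholesterol, by -0.15 log2 (-0.93 to 0.64). *Hsd17b7*, a sterol ketoreductase, differed by 0.20 log2 (-0.45 to 0.84). *Sc5d*, a sterol desaturase, differed by -0.36 log2 (-1.34 to 0.62). For *Tm7sf2* and *Ebp*, the genes with the fewest reads, the intervals ran from -2.49 to 1.13 and from -2.31 to 2.38 log2. Exons of *Cyp51* overlap *Akap9* on the opposite strand, and those of *Tm7sf2* overlap *Vps51* on the same strand.

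Of the 7 sensors and transcription factors, 4 had lower and 3 had higher cryptorchid means, and the median difference was -0.22 log2. *Scap* (chr9:110333288-110384950, plus strand, ENSMUSG00000032485.14), the escort protein that carries SREBPs to the Golgi, measured 7.49, 7.35, 6.42, 7.36 and 6.72 log2 RPM in control replicates 1 to 5. In cryptorchid libraries its lowest value was 5.84, its median 6.42 and its highest 6.60 log2 RPM. All 7 cryptorchid values lay below the control median of 7.35, and the overlap came from control replicate 3. The difference was -0.76 log2 (SE 0.26), at limma *P* = 0.0086 with an adjusted *P* of 0.36, and the exact rank sum test gave *P* = 0.0177. It kept *P* under 0.05 in 12 of 12 fits that left out 1 library each, and was -0.86 log2 with an adjusted *P* of 0.15 without both libraries numbered 3.

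*Srebf2* (chr15:82147181-82205379, plus strand, ENSMUSG00000022463.8), the transcription factor that governs the sterol enzymes, measured 8.13, 7.48, 7.84, 7.80 and 7.72 log2 RPM in control replicates 1 to 5. Its cryptorchid values ran from 7.02 to 7.54 log2 RPM with a median of 7.29. The cryptorchid libraries lay below all control libraries in 6 of 7 cases, and the overlap was between control replicate 2 and cryptorchid replicate 3. The difference was -0.49 log2 (SE 0.22), with an adjusted *P* of 0.48 in limma. The unadjusted limma *P* was 0.0354 and the exact rank sum test gave *P* = 0.00505, where 0.00253 is the smallest value that 792 splits of these libraries allow. The limma *P*-value rested on the libraries used, for it stayed under 0.05 in 6 of 12 fits without 1 library and was above 0.05 without control replicate 1, 4 or 5 or cryptorchid replicate 4, 5 or 7.

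*Insig2*, which retains SCAP in the endoplasmic reticulum, differed by 0.41 log2 (SE 0.26), with *P* = 0.126 in limma and 0.048 in the exact rank sum test, and 4 of 7 cryptorchid values lay above the highest control value. Its relative *Insig1* differed by 0.00 log2 (95% interval -0.71 to 0.72). *Srebf1*, the factor tied more to fatty acid genes, differed by -0.47 log2 (SE 0.32, limma *P* = 0.168, exact rank sum *P* = 0.202). The LXR genes *Nr1h2* and *Nr1h3*, whose proteins respond to oxysterols, differed by 0.15 log2 (SE 0.47) and -0.22 log2 (SE 0.60). Exons of *Srebf1* overlap *Rai1* on the opposite strand.

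The 7 genes of uptake, transport, efflux and storage were divided into 4 with higher and 3 with lower cryptorchid means, with a median of 0.04 log2 and no *P* under 0.05. *Npc2*, which hands cholesterol to the membrane protein NPC1 in the lysosome, measured 6.36, 7.04, 4.38, 6.22 and 6.03 log2 RPM in control replicates 1 to 5. Its cryptorchid values ran from 4.74 to 6.83 log2 RPM with a median of 5.49. The lowest value of each group was in the library numbered 3, and 6 of 7 cryptorchid values lay below the control median. The difference was -0.42 log2 (SE 0.43, limma *P* = 0.343, exact rank sum *P* = 0.343), and it was -0.68 log2 with an adjusted *P* of 0.42 in limma without both libraries numbered 3.

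*Abcg1*, an efflux transporter and LXR target, measured 5.22, 4.87, 5.19, 5.75 and 6.24 log2 RPM in control replicates 1 to 5 and from 4.02 to 5.75 log2 RPM, median 5.19, in cryptorchid libraries. The medians of the groups were nearly equal, 5.22 and 5.19 log2 RPM, and the difference of means was -0.34 log2 (SE 0.33, limma *P* = 0.308, exact rank sum *P* = 0.53). *Abca1*, the pump that loads cholesterol onto apolipoproteins and another LXR target, differed by 0.19 log2 (95% interval -0.74 to 1.13). *Soat1*, which esterifies cholesterol for storage, differed by 0.44 log2 (SE 0.49), *Lrp8*, a lipoprotein receptor, by -0.39 log2 (SE 0.59), *Stard4*, a cytosolic sterol carrier, by 0.18 log2 (SE 0.30), and *Npc1* by 0.04 log2 (SE 0.26). Exons of *Npc1* overlap *Rmc1* on the opposite strand.

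**Figure D4:**
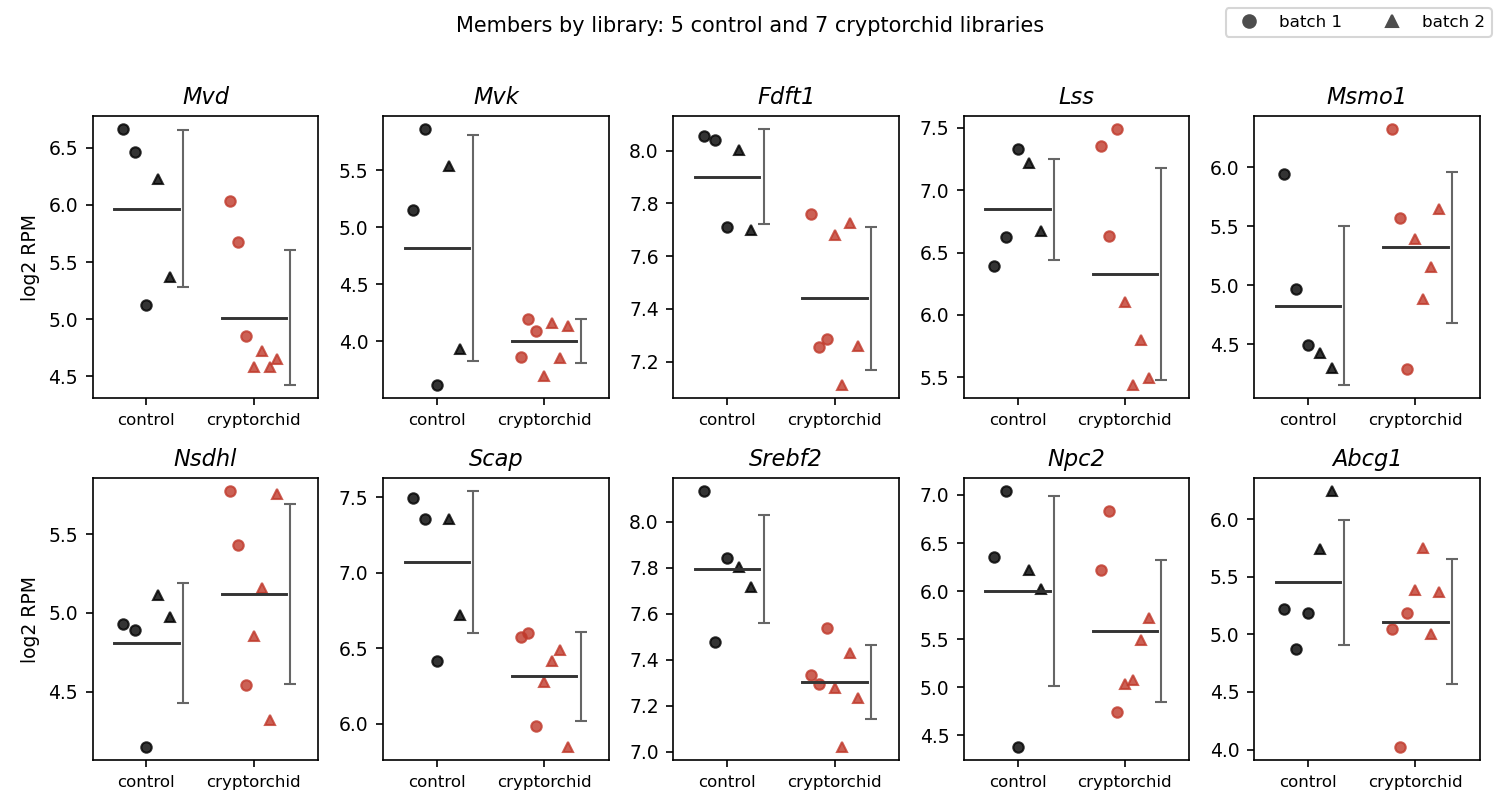
Log2 RPM in each library for the 10 genes given library by library, with control in black and cryptorchid in red, circles for batch 1 and triangles for batch 2, horizontal lines at group means and bars of 1 SD. For *Mvd*, *Scap* and *Srebf2* most cryptorchid points lie below the control points, while for *Lss* the triangles and circles of the cryptorchid group lie apart.

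The groups were also compared within each batch, of 3 control and 3 cryptorchid libraries in batch 1 and of 2 and 4 in batch 2. *Mvd* differed by -0.56 log2 in batch 1 and by -1.16 log2 in batch 2, *Scap* by -0.70 and -0.78 log2, and *Srebf2* by -0.43 and -0.52 log2. With batch as a term in the fit these same 3 genes had *P* under 0.05, with adjusted *P*-values of 0.32, 0.27 and 0.41 in limma, and so had 11.4% of all tested genes. Within batch 1 alone none of the 33 had *P* under 0.05, beside 3.74% of all tested genes, and within batch 2 alone 11 had, beside 17.3%. The sign was the same in both batches for 21 of 33 genes (63.6%), beside 63.9% of all tested genes.

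*Lss* differed by 0.38 log2 in batch 1 and by -1.23 log2 in batch 2. The interaction of group and batch was -1.61 log2 (SE 0.53), with an adjusted *P* of 0.9996 in limma, and *Lss* was the only gene of the 33 with unadjusted *P* under 0.05, where 1.59% of all tested genes were. *Srebf1* differed by 0.16 and -1.02 log2 in batches 1 and 2 (interaction -1.18 log2), *Pmvk* by -0.11 and -2.09 log2 (interaction -1.97 log2), and *Soat1* by -0.13 and 1.03 log2 (interaction 1.15 log2), and these interactions had *P* above 0.05.

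**Figure D5:**
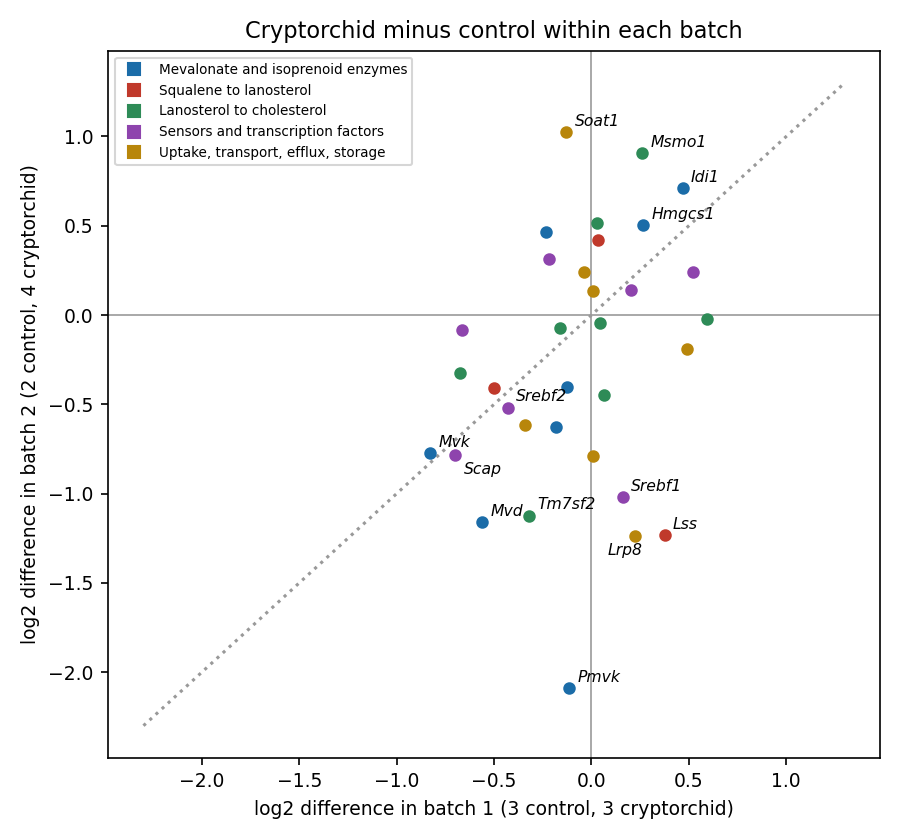
Difference of group means in log2 units within batch 1 (horizontal axis) and within batch 2 (vertical axis) for the 33 genes, coloured by role, with a dotted line where both are equal. *Mvd*, *Scap* and *Srebf2* lie at the lower left, *Lss*, *Srebf1* and *Lrp8* lie right of 0 and far below it, and *Pmvk* lies lowest at -2.09.

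A list of 63 further genes that work with these was examined, of which 59 passed the filter. Cryptorchid means were lower for 37 of the 59, beside 43.3% of all tested genes, and the median difference was -0.13 log2, beside 0.10. In limma 7 had *P* under 0.05, 3 lower and 4 higher, beside 3.82% and 5.67% of all tested genes, with none after adjustment. At 2-fold and *P* under 0.05, 3 were called higher and 2 lower, beside 3.56% and 2.36% of all tested genes. Among 11 tested fatty acid genes of the SREBP programme, *Fads2*, a fatty acid desaturase, measured 6.41, 6.22, 5.44, 5.98 and 5.45 log2 RPM in control replicates 1 to 5 and from 4.25 to 5.29 log2 RPM, median 5.07, in cryptorchid libraries. All 7 cryptorchid values lay below all control values, as in 0.283% of all tested genes. The difference was -1.01 log2 (adjusted *P* = 0.24 in limma, exact rank sum *P* = 0.00253). *Elovl6*, a fatty acid elongase of the same list, differed by 1.06 log2 in the other direction (adjusted *P* = 0.22 in limma, exact rank sum *P* = 0.0101), with 6 of 7 cryptorchid values above all control values. *Fasn*, fatty acid synthase, differed by -0.54 log2.

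The other 3 called genes were *Scarb2*, a lysosomal membrane protein, at 1.23 log2, *Zmpste24*, the protease that trims farnesylated proteins, at 1.06 log2, and *Stard10*, a lipid transfer protein, at -1.93 log2. *Cyb5b*, a cytochrome b5 that passes electrons to sterol enzymes, differed by 0.69 log2, and 6 of 7 cryptorchid values lay above all control values. None of the 8 genes of SREBP processing and sterol-regulated degradation had *P* under 0.05 in limma. The same held for the 7 tested oxysterol and steroid enzymes, beside 9.48% of all tested genes with *P* under 0.05.

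Some markers of other cells differed between the groups, and the marker lists are given as measured beside these results. All 6 spermatid markers had lower cryptorchid means, 3 with *P* under 0.05 in limma, and their summed level was 484 to 2594 RPM in control and 11.6 to 1668 RPM in cryptorchid libraries. All 4 endothelial markers had higher cryptorchid means, 3 with *P* under 0.05, with sums of 3.64 to 18.4 RPM in control and 12.5 to 35.1 RPM in cryptorchid libraries. Of the Leydig cell markers *Cyp11a1*, *Hsd3b1*, *Cyp17a1* and *Lhcgr* had no reads in at least 6 of 12 libraries, and the summed level of the 6 markers was 8.64 to 15.5 RPM and 6.18 to 47.8 RPM. Spermatocyte, Sertoli, peritubular myoid and lymphocyte lists had no marker with *P* under 0.05, and the macrophage list had 1 of 5, *Mrc1*, at 2.02 log2. Both spermatogonial lists were mixed in direction. Of 10 markers of undifferentiated spermatogonia 5 had higher cryptorchid means, and 1 had *P* under 0.05 in limma, *Nanos3* at -0.97 log2. Of 6 markers of differentiating spermatogonia 2 had higher means, and 2 had *P* under 0.05, *Stra8* at 1.09 log2 and *Dnmt3b* at -1.20 log2. The part of such cells or states in the values of the cholesterol genes was not tested.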

How the data were processed

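RNA was measured in 12 libraries of sorted spermatogonia, grouped by the sample titles into 5 control and 7 cryptorchid libraries. The authors trimmed reads, mapped them to mm10 and used SeqMonk to count them per protein-coding gene. The deposited table gives log2 RPM values of 21859 genes, each library scaled to its own total. The submitters' processing notes name FastQC 0.11.8, Trim Galore 0.6.6 and HISAT2 2.1.0. Per the study's methods, RNA-seq datasets with excessive duplicates were left out, and whether counting took account of strand is not given in the sources used here. Smart-seq2 carries no molecular identifiers, so read numbers and floors cover counting error only.

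Group differences in the deposited log2 RPM values came from limma (version 3.58.1, R 4.3.3), using lmFit and eBayes with its trend option on 16932 genes whose log2 mean RPM exceeded -1, and *P*-values were adjusted over all of them by the Benjamini-Hochberg method. The 2-fold and unadjusted *P* under 0.05 rule follows the study. Its count test was not run, and limma on the deposited log2 RPM values took its place. Reads recovered as described next served the voom alternative. The deposited value of a gene without reads corresponds to 0.9 reads, and reads were recovered from the steps of the values (100% whole within 0.05 reads, below 1000 reads). The exact rank sum test was two-sided, in Python 3.11.15 with scipy 1.17.1, numpy 2.4.6 and pandas 2.3.3, and plots were drawn with matplotlib 3.10.9. Chi-square values of 31 pairs of replicates over genes were 12.8 to 253 times those of sampling noise, so no library was counted as a copy. GENCODE vM21 (GRCm38, which is mm10) gave positions and exon lengths, and RefSeq (GRCm38.p6) gave promoters. Data were simulated from the gene means and depths of these libraries, with the same spread for every gene (SD 0.569) and without batches or pairs. Among 16932 genes, 200 were changed by 3 on the log2 scale. There limma recovered 100% of them, 1.96% of its calls were false, and 5.55% of unchanged genes had *P* under 0.05. These changes were larger than any difference of the 33 genes, and recovery of smaller differences was not tested.

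The member genes, the list of other pathway genes and the marker lists were chosen with earlier results of these data known. Library by library values are given for members with unadjusted *P* under 0.05 or with groups that do not overlap and for the 2 members of each role with the smallest *P*, and other pathway genes are named where called at 2-fold, while *Cyb5b* and *Fasn* were named after their values were seen. The alternatives were median centring, quantile normalization, pseudocounts of 1 and 0.1 RPM, a common floor, no filter or a filter at 2, library weights, voom on recovered reads, the log2 ratio of mean RPM, the exact rank sum test, the replicate number as a block, a batch term, each batch alone and each library left out. Leaving out both libraries numbered 3 and the interaction of group and batch were added after the data were seen.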

Additional observations from a re-analysis of the deposited data

Results flagged for a closer look

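In 5 of 66 groups of values (33 genes in control and in cryptorchid libraries, 7.58%), 1 library lay far from the others by Dixon's criterion, which chance alone reaches in about 1 in 20 groups. *Fdps* in control libraries was 6.84 log2 RPM in replicate 3, where the others were 8.37 to 8.82. *Nsdhl* in control libraries was 4.15 log2 RPM in replicate 3, where the others were 4.90 to 5.11. *Stard4* in control libraries was 4.34 log2 RPM in replicate 3, where the others were 5.39 to 5.78. *Ggps1* in cryptorchid libraries was 4.58 log2 RPM in replicate 3, where the others were 5.70 to 5.97. *Soat1* in cryptorchid libraries was 3.46 log2 RPM in replicate 2, where the others were 5.74 to 7.02. The reads behind these values numbered from 123 for *Soat1* to 1166 for *Fdps*.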

How the results depend on the processing

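Genes with unadjusted *P* under 0.05 numbered 3 in the limma fit as reported (9.48% of all tested genes; shares in parentheses are of all tested genes throughout). They numbered 5 with median centring (9.86%), quantile normalization (10.05%), a filter at 2 (10.12%), voom (11.56%) or the exact rank sum test (9.63%), 6 without both libraries numbered 3 (13.5%), 13 with library weights (20.03%), 0 in batch 1 alone (3.74%) and 11 in batch 2 alone (17.3%). Leaving out 1 library gave 2 to 7 (7.25% to 12.95%), with 7 without control replicate 3 (12.95%) and 5 without cryptorchid replicate 2 (11.36%). For calls at 2-fold, parentheses give the number called among all 16932 tested genes. Genes called lower numbered 0 as reported (399) and 1 with median centring (501) or quantile normalization (542). They numbered 2 with library weights (703) or without both libraries numbered 3 (488), and 4 in batch 2 alone (705). Leaving out 1 library gave 0 to 2 (280 to 572), with 2 without control replicate 3 (572) or 5 (280) and 1 without cryptorchid replicate 1 (472) or 2 (401). Genes called higher numbered 1 in batch 2 alone (635), and 0 otherwise. With library weights 2 genes, *Mvd* and *Scap*, had an adjusted *P* under 0.05 in limma (2.81%). The median difference ran from -0.33 without both libraries numbered 3 to 0.03 without control replicate 1. Causes of these changes were not tested. With the replicate number as a block, 8 genes had *P* under 0.05 (22.2%) and 1, *Scap*, had an adjusted *P* under 0.05 in limma, as did 949 of all 16932 tested genes. Same-numbered libraries correlated at 0.0488 to 0.411 in their deviations, with 4 of 5 pairs above 0.1. In each group 4 of 5 libraries lay closest to their own number. In batch 1 same-numbered libraries correlated at 0.347 to 0.411, and differently numbered ones at up to 0.251. In batch 2 control replicate 4 correlated at 0.250 with its own number, at 0.231 and 0.239 with cryptorchid replicates 6 and 7, and at 0.026 with 5. The deviations were from group means without regard to batch, so a shared mouse and a shared batch cannot be told apart in them. The surgery left the other testis of a mouse as control, so pairs are possible by design, but the labels do not give them. The numbers were not taken as pairs because 1 pair was under 0.1 and the sources used here do not say which libraries share a mouse.

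All 28 alternatives kept the sign of *Mvd*, *Scap* and *Srebf2*, and 25, 26 and 20 of 27 tests had *P* under 0.05. For *Ebp*, *Tm7sf2* and *Pmvk* few reads limit the precision.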
